A study of Mus musculus with 28 samples.

Results

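The genes of the Wnt pathway that make, carry, receive and limit the signal were followed across unedited mIMCD-3 cells. They were chosen by symbol alone, as the Wnt ligands, the Frizzled receptors, Lrp5 and Lrp6, the Sfrp, Dkk and R-spondin genes, Lgr4 to Lgr6, the Axin genes and single genes of Wnt secretion, inhibition and transcription such as Wls, Notum, Ctnnb1 and Tcf7, and came to 61 of the 45706 genes listed. RNA was sequenced from 28 libraries of mIMCD-3, an epithelial line that was made from inner medullary collecting ducts of an SV40 transgenic mouse, in 7 groups of 4 libraries. The groups were polyclonal WT cells, monoclonal WT5, which is 1 clone grown from a single sorted cell, and 5 subclones that were each grown from a single sorted cell of WT5. No group was edited or treated, and RNA was isolated 4 days after confluency in all of them. The question was how far unedited cells of 1 line differ when they are grown from single cells.

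Wnt ligands are secreted lipid-modified proteins that bind a Frizzled receptor together with the co-receptor LRP5 or LRP6 on the receiving cell. In the canonical pathway this spares beta-catenin from destruction by the complex that AXIN scaffolds, and beta-catenin then acts with TCF/LEF factors on target genes, several of which are themselves inhibitors of the pathway. In the developing kidney Wnt ligands of the ureteric bud, from which collecting ducts form, drive branching, tubule formation and the growth of the medulla.

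Values were deposited as TPM, the share of a gene among the transcripts of its library, scaled to the same total in each library and corrected for transcript length, so that levels of different genes can be set side by side. Depth is lost in TPM, so how many reads stand behind a value is unknown, and the lowest values (given to 2 decimals) are the least precise. Polyclonal WT libraries were read as single-end and WT5 as longer paired-end reads, so a difference between these lines and one between sequencing runs cannot be told apart. Polyclonal WT and WT5 stand in 1 table and the subclones in another, so a shift from WT5 shared by all 5 subclones and a shift between the tables cannot be told apart. The methods call the libraries of a group biological replicates and a figure legend calls them technical, so p-values measure the spread between these libraries. Between 18681 and 19272 genes were above 0 in the polyclonal libraries and between 16270 and 17004 in the others, and the correlation of log2 values between libraries of 1 group lay between 0.983 and 0.990.

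All 7 epithelial markers examined, among them Cdh1 and Epcam, were at a mean of at least 1 TPM in every group. Of 14 markers of collecting duct principal cells, 6 reached 1 TPM in polyclonal WT and 3 or 4 in the other groups, and the water channel gene Aqp2, which defines these cells, was at 0 in all 28 libraries. The sum of the 14 was between 90.0 and 104 TPM in polyclonal WT and between 60.0 and 81.3 TPM in the other libraries. Hoxb7 made up most of it, with means of 68.0 TPM in polyclonal WT and of 55.3 TPM in WT5, while Avpr2, the vasopressin receptor gene, went from 10.6 to 0.06 TPM and Gata3 from 4.08 to 0.04 TPM. Others of the 14 were higher in WT5, such as Hsd11b2 (from 1.995 to 4.41 TPM) and Gata2 (from 0.065 to 0.95 TPM). Of markers of other kidney cells, Umod of the thick ascending limb had means of 0.07 and 3.38 TPM in these lines, and Podxl of podocytes 0.42 and 15.3 TPM. The part of these markers in the differences of the Wnt genes was not tested. Markers of fibroblasts and endothelium summed to at most 2.12 TPM in any library. The sum of 6 leukocyte markers was between 12.3 and 13.9 TPM in polyclonal WT and between 28.4 and 55.6 TPM in the other libraries, nearly all of it Csf1r and Cd68, while Adgre1 and Cd3e were at 0 and Ptprc was at most at 0.17 TPM in every library. Subclone 5 replicate 1 was the lowest of its group for 70.0% of the 12442 genes with a mean of at least 1 TPM, and for 27 of 32 such Wnt pathway genes.

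Wnt7b, a ligand of the ureteric bud and collecting duct, was the most abundant Wnt transcript in every group. Of the 61 genes, 32 were above 0 in all 28 libraries, 9 were at 0 in all of them, and 23 had a mean of at least 1 TPM in every group. Among the 19 ligands, 5 reached that mean in every group and 10 in at least 1 group, while 7 (Wnt1, Wnt3, Wnt3a, Wnt8a, Wnt8b, Wnt9b and Wnt10b) stayed below 0.1 TPM in every library. Outside the ligands 11 genes stayed below 0.1 TPM as well, namely Fzd10, the inhibitors Sfrp1, Sfrp4, Dkk1 and Dkk4, all of Rspo1 to Rspo4, the R-spondin receptor Lgr5 and the feedback inhibitor Nkd1. Each group thus held transcripts of ligands, receptors and co-receptors, and almost none of R-spondins, the secreted proteins that raise Wnt receptor levels at the membrane.

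**Figure D1:**
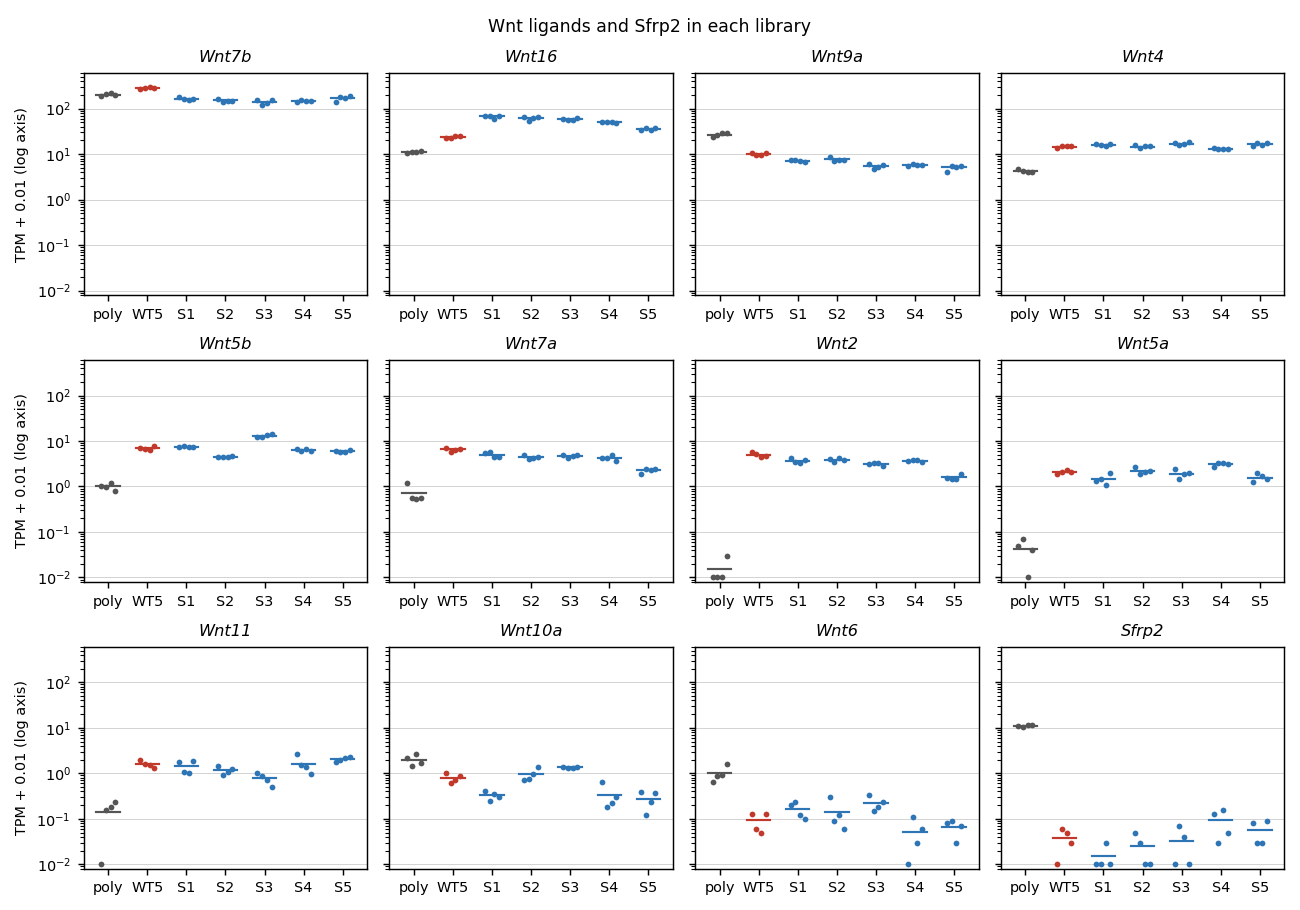
TPM of Wnt ligands and of the inhibitor Sfrp2 in each library (dots) with the group mean (line), by group, on a log axis. A small offset was added to each value so that 0 could be drawn. Wnt2 and Wnt5a lie at or near 0 in polyclonal WT and above 1 TPM in WT5 and the subclones, and Wnt16 is highest in subclones 1 to 3.

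The total of all 19 ligands was 252 ± 15.1 TPM (SD, n = 4) in polyclonal WT and 362 ± 12.3 TPM in WT5, and it lay between group means of 237 and 273 TPM in the subclones. Wnt7b made up 81.2% ± 0.71 of that total in polyclonal WT and 80.1% ± 0.75 in WT5, and between 57.0% and 70.3% in the subclones. Wnt16 made up 4.50% ± 0.23 in polyclonal WT, 6.60% ± 0.16 in WT5 and between 15.0% and 24.6% in the subclones. The subclones thus held a mixture of ligand transcripts in which Wnt7b had a smaller and Wnt16 a larger share. Without Wnt7b the other 18 ligands summed to 47.3 ± 2.77 TPM in polyclonal WT, to 72.0 ± 1.40 TPM in WT5 and to a mean of 110 TPM in subclone 1, the highest, and of 71.7 TPM in subclone 5, the lowest of the subclones. In these bulk samples, fewer cells with a transcript and less of it per cell cannot be told apart.

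**Figure D2:**
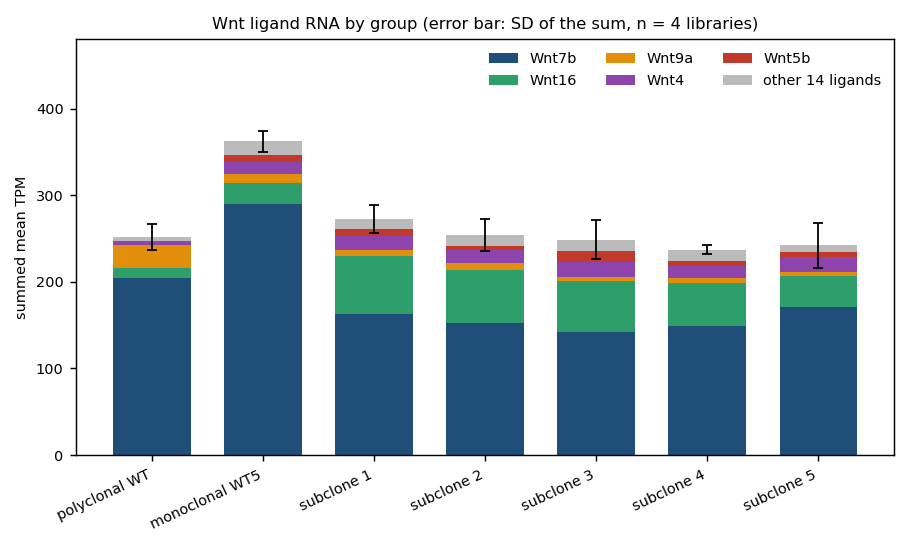
Summed TPM of the Wnt ligands by group, as stacked bars from 0 with means over 4 libraries, and the SD of the sum. Wnt7b, Wnt16, Wnt9a, Wnt4 and Wnt5b have their own segments, and the other ligands are pooled. The bar of WT5 is the highest at 362 TPM, and the Wnt16 segment is taller in the 5 subclones than in polyclonal WT or WT5.

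To show what lies in front of the genes that the results turn on, stretches of 250 bases before a transcription start are given for 5 of them, from RefSeq on GRCm38.p6, read 5′ to 3′ on the strand of the gene. Sfrp2 (chr3:83766071-83766320, plus strand) and Wnt16 (chr6:22287977-22288226, plus strand) are the inhibitor that fell furthest from polyclonal WT to WT5 and the ligand that was higher in the subclones. Wnt11 (chr7:98834862-98835111, plus strand, 1 of 2 annotated starts) and Wnt5b (chr6:119449387-119449636, minus strand, an internal start and 1 of 3) are ligands that were higher in WT5 and hold the letters searched for. Axin2 (chr11:108920099-108920348, plus strand) is the target gene most used as a readout of the pathway. Capitals mark the letters CTTTGAT or CTTTGAA, which TCF/LEF factors bind, or their reverse complements ATCAAAG and TTCAAAG.
Sfrp2: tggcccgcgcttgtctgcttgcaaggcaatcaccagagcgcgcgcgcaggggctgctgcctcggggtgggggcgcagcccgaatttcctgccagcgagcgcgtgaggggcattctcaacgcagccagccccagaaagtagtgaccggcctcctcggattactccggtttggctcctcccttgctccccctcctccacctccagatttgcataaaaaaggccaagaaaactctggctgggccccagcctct
Wnt16: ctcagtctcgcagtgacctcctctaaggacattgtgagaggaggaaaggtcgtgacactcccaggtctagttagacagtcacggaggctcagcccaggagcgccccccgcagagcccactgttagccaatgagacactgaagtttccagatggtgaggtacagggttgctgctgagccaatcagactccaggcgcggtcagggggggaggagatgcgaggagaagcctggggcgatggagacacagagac
Wnt11: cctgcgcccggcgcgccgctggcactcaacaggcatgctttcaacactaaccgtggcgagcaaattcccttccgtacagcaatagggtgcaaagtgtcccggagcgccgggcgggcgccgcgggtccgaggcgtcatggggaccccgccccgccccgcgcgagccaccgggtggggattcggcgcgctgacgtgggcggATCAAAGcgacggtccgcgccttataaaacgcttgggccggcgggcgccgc
Wnt5b: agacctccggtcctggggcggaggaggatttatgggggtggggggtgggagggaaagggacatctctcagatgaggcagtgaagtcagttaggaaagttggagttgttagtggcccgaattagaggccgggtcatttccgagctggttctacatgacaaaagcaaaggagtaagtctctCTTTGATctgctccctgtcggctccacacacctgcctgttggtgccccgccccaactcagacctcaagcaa
Axin2: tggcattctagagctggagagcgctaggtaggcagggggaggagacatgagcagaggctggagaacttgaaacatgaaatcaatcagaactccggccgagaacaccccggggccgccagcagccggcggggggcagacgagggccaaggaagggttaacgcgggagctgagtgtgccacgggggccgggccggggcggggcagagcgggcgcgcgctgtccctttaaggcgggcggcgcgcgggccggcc
The letters were searched on both strands in the 49 such stretches that matched 39 of the 61 genes, and were found in 3 of them (6.12%), those of Wnt11, Wnt5b and Dkk1. Of 32851 stretches of the same length before all RefSeq starts, 2457 (7.48%) held them. The match lies 51 bases before the start in Wnt11 and 71 in Wnt5b. A match describes the letters only, and where there is none, as in Sfrp2, Wnt16 and Axin2, only this window lacks them. The stretches of the Wnt pathway genes had a median GC content of 66.4% and a median of 20 CpG, against 52.4% and 6 over all stretches.

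WT5 was compared with polyclonal WT to see how the Wnt genes of 1 clone differed from the population it came from. Ligands, genes grouped as inhibitors and transcription factors of the pathway differed in both directions. Wnt2, Wnt5a, Wnt7a, Wnt11, Wnt5b and Wnt4 were higher in WT5, and Wnt6, Wnt9a and Wnt10a were lower. Of the genes grouped as inhibitors by symbol, Dkk3 and Dkk2 were higher and Sfrp2 and Sfrp5 lower. Tcf7 was higher and Tcf7l2 lower. Differences are given on the scale of log2(TPM + 0.1), centred on the median gene of each library, and the pseudocount makes them understate the change of low genes. A gene was called where limma gave an adjusted p-value under 0.01 and the difference was more than 2-fold, and 21 of the 42 Wnt pathway genes tested were called (50%), 13 with higher and 8 with lower levels in WT5. Of all 17226 genes tested, 31.0% changed by this rule, 11.4% higher and 19.6% lower. The median difference was 0.38 over the 42 Wnt pathway genes and -0.12 over all genes. The other 19 Wnt pathway genes did not reach a mean of 0.1 TPM in either line and were not tested, and 11 of the 42 passed that filter through 1 line only. In all 21 genes that changed, the 4 libraries of WT5 lay apart from the 4 of polyclonal WT, as they did in 98.8% of the 5340 genes that changed in all. Uncentred, the median of all genes is 0.09, and 14 of the Wnt pathway genes are higher and 7 lower. With quantile normalization 18 are higher and 5 lower, and the share of higher calls over all genes rises from 36.7% to 46.4% uncentred and to 58.9% with quantile normalization.

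**Figure D3:**
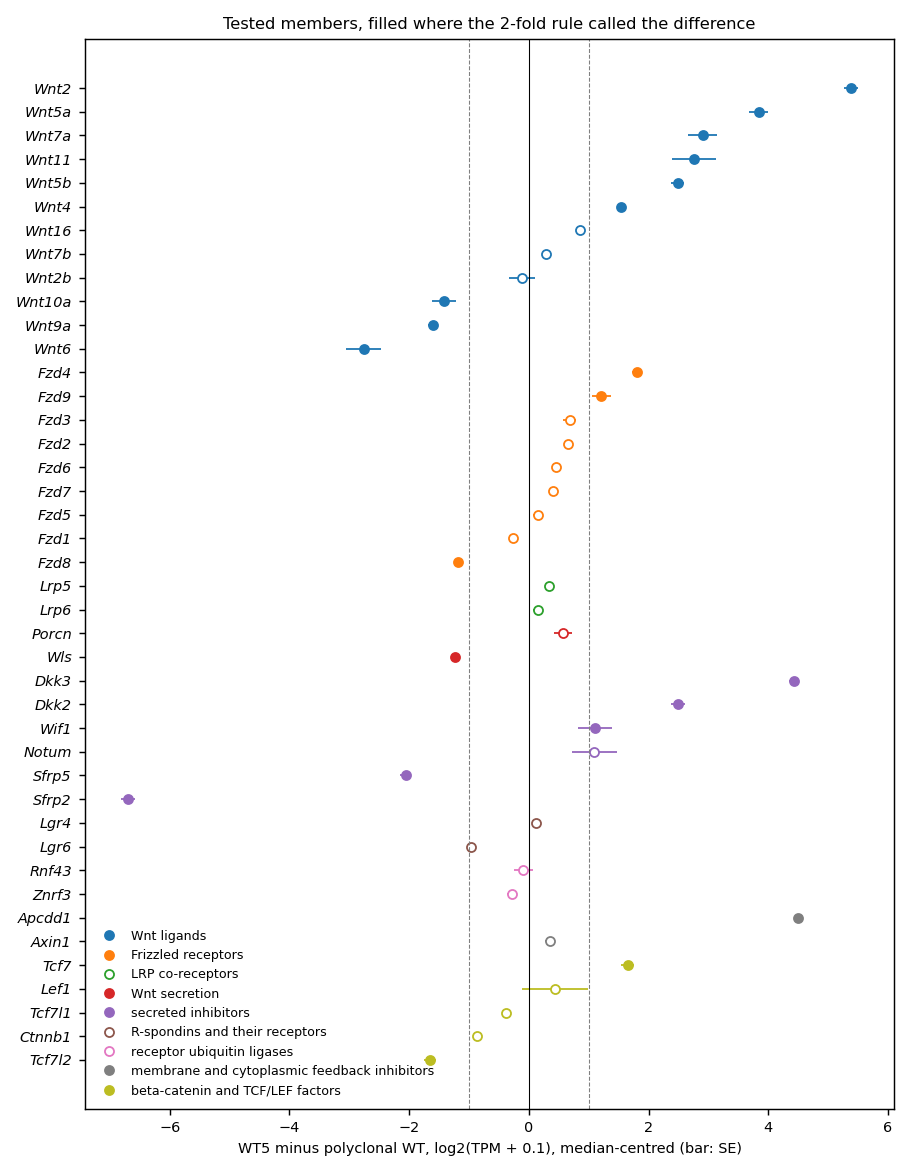
Difference between WT5 and polyclonal WT on the log2(TPM + 0.1) scale for each Wnt pathway gene tested, grouped by role, with called genes marked. The ligands Wnt2 and Wnt5a and the genes Apcdd1, Dkk3 and Sfrp2, grouped as inhibitors, lie farthest from 0, with Sfrp2 at -6.69.

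By a stricter rule, close to that of the study, which names an unequal-variance test on z-scored values where limma was used here (log2 TPM z-scored within each library, with a threshold of 1 on the difference of z-scores, here 8.56-fold, beside that on the adjusted p-value), 2 of 33 Wnt pathway genes changed, against 5.43% of all 13723 genes tested (2.31% higher and 3.12% lower). Dkk3 was higher in WT5 by 1.5 ± 0.03 (SE, limma adjusted p = 1.59e-08) and Wnt6 lower by a z-score difference of -1.28 ± 0.15 (adjusted p = 0.000119). This rule needs a value above 0 in all 8 libraries, so 28 of the 61 genes, Sfrp2, Wnt2 and Wnt5a among them, were not tested by it. The call of Wnt6 was lost with a pseudocount of 1, and with one of 0.1 over genes above 0 in any library 5 genes changed, with Sfrp2, Wnt2, Wnt5a and Apcdd1 added to Dkk3.

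Wnt2, a ligand best known from the developing lung, was at 0, 0, 0 and 0.02 TPM in polyclonal WT and at 5.63, 5.25, 4.44 and 4.61 TPM in WT5. All WT5 libraries lay far above all polyclonal ones, with a log2 difference of 5.38 ± 0.11 (SE, adjusted p = 1.06e-08). The gene lies at chr6:17988940-18030585 on GRCm38. Wnt5a, the ligand most studied for signalling that does not need beta-catenin, was at 0.04, 0.06, 0 and 0.03 TPM in polyclonal WT and at 1.83, 2.12, 2.26 and 2.09 TPM in WT5. It was likewise apart in all libraries, by 3.84 ± 0.16 (adjusted p = 3.73e-07). Wnt7a, the paralog of Wnt7b, was at 1.18, 0.54, 0.53 and 0.55 TPM in polyclonal WT and between 5.74 and 7.04 TPM in WT5, a difference of 2.90 ± 0.24 (adjusted p = 1.9e-05). Wnt11, a ligand of the ureteric bud tips, rose from at most 0.22 TPM to between 1.33 and 2.00 TPM, by 2.76 ± 0.36 (adjusted p = 0.000262). Wnt5b rose 5.60-fold, from 1.01 ± 0.17 to 7.05 ± 0.60 TPM (SD, n = 4, adjusted p = 7.45e-07). Wnt4, a ligand needed for the formation of nephrons, rose 2.91-fold, from 4.28 ± 0.26 to 14.7 ± 0.67 TPM (adjusted p = 2.32e-07). These 6 ligands were higher in all 4 WT5 libraries than in any polyclonal library.

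The ligands that fell were Wnt9a, Wnt10a and Wnt6. Wnt9a, at 23.4, 25.9, 28.5 and 28.7 TPM in polyclonal WT, was at 10.7, 9.74, 9.37 and 10.5 TPM in WT5. It was the second most abundant ligand of polyclonal WT, and its libraries did not overlap, with a log2 difference of -1.60 ± 0.09 (adjusted p = 1.71e-06). Wnt6 was at 0.63, 0.88, 0.90 and 1.57 TPM in polyclonal WT and at 0.12, 0.05, 0.04 and 0.12 TPM in WT5. Wnt10a was at 2.18, 1.47, 2.59 and 1.66 TPM and at 0.99, 0.59, 0.71 and 0.88 TPM. Both were lower in all WT5 libraries, by log2 differences of -2.76 ± 0.29 and -1.42 ± 0.21 (adjusted p = 6.88e-05 and 0.000453). The call of Wnt10a, like that of the inhibitor Sfrp5, was lost with quantile normalization. Wnt6 (chr1:74771892-74785322) and Wnt10a (chr1:74791516-74804179) are neighbours on the plus strand, 6.19 kb apart with 0 coding genes between them. The most abundant ligand, Wnt7b (chr15:85535437-85582473), was at 189, 207, 220 and 202 TPM in polyclonal WT and at 275, 290, 305 and 290 TPM in WT5. All WT5 libraries were higher, by a log2 difference of 0.29 ± 0.05 (adjusted p = 0.00119), which is under 2-fold. Wnt16 was at 11.3 ± 0.41 TPM in polyclonal WT and at 23.9 ± 1.17 TPM in WT5 without overlap, a log2 difference of 0.86 ± 0.05 (adjusted p = 3.41e-06) and thus also under 2-fold after centring.

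Of the receptors, 3 of 9 tested Frizzled genes and 0 of 2 LRP genes were called, beside 9 of 12 tested ligands and 31.0% of all genes, and the difference between receptors and ligands was not tested. The most abundant receptor transcripts were Fzd6, at 49.9 ± 2.18 TPM in polyclonal WT and at 79.7 ± 3.71 TPM in WT5, and Fzd7, at 14.5 ± 0.49 and 22.3 ± 0.33 TPM. Their log2 differences of 0.46 and 0.40 did not reach 2-fold. Fzd4, a receptor for Wnt ligands and for norrin, was at 0.70, 0.94, 0.84 and 0.78 TPM in polyclonal WT and at 3.40, 3.48, 3.81 and 3.72 TPM in WT5. Its libraries did not overlap and it rose 3.50-fold (adjusted p = 1.04e-06). Fzd9 rose 2.32-fold at a low level (0.09 ± 0.03 and 0.41 ± 0.10 TPM, adjusted p = 0.000217). Fzd8 fell from 3.18 ± 0.29 to 1.56 ± 0.05 TPM, by 2.27-fold (adjusted p = 1.45e-06), a call that was lost without centring and with quantile normalization. Of the co-receptors, Lrp5 had 74.9 ± 5.76 TPM in polyclonal WT and had 109 ± 3.97 TPM in WT5, and Lrp6 at 14.3 ± 1.39 and 18.3 ± 1.35 TPM, with log2 differences of 0.33 and 0.15.

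Wls, the carrier that takes Wnt proteins to the cell surface, fell in WT5. It was at 306, 310, 328 and 303 TPM in polyclonal WT and at 147, 157, 156 and 152 TPM in WT5. Every WT5 library was near 1 level and below every polyclonal library, and the fall was 2.36-fold (log2 difference of -1.24 ± 0.04, adjusted p = 5.94e-08). Porcn, the enzyme that attaches the lipid to Wnt proteins, was at 1.79 ± 0.41 and 3.11 ± 0.26 TPM and did not pass 2-fold.

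Of the 10 secreted inhibitors, 6 were tested and 5 changed, beside 31.0% of all genes. Genes were grouped as inhibitors by symbol, and whether each inhibits Wnt signalling in these cells was not tested. Sfrp2, a secreted protein with a Frizzled-like domain that binds Wnt ligands, was at 11.3, 10.2, 11.4 and 11.8 TPM in polyclonal WT and at 0, 0.05, 0.04 and 0.02 TPM in WT5. This was the largest difference among the Wnt pathway genes tested, a log2 difference of -6.69 ± 0.12 (adjusted p = 4.91e-09), and Sfrp2 was the only one of these 10 inhibitors above 1 TPM in polyclonal WT. Dkk3 (chr7:112116017-112159057), a divergent member of the Dickkopf family of secreted proteins, was at 0.60, 0.49, 0.57 and 0.44 TPM in polyclonal WT and at 15.7, 14.9, 15.7 and 15.5 TPM in WT5. All WT5 libraries stood above the polyclonal ones and the rise was 21.6-fold (adjusted p = 5.64e-09). Of the 10 listed, the 1 above 1 TPM was thus Sfrp2 in polyclonal WT and Dkk3 in WT5. Dkk2, which acts on LRP receptors, rose from at most 0.05 TPM to between 0.59 and 0.72 TPM (adjusted p = 9.96e-07). Sfrp5 was between 0.25 and 0.34 TPM in polyclonal WT and at 0.02 TPM or 0 in WT5 (adjusted p = 7.77e-07). Wif1, a secreted Wnt-binding protein, was at 0, 0.05, 0 and 0 TPM and at 0.13, 0.37, 0.17 and 0.10 TPM. Its call (adjusted p = 0.00849) was lost when polyclonal WT replicate 1, 3 or 4 was left out.

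Of the R-spondin receptors and the ubiquitin ligases that remove Frizzled proteins from the membrane, 0 of 4 tested genes passed 2-fold, beside 31.0% of all genes. Lgr4 was at 76.0 ± 3.48 TPM in polyclonal WT and at 95.9 ± 2.43 TPM in WT5, and Lgr6 at 15.9 ± 0.69 and 9.39 ± 0.26 TPM. The log2 difference of Lgr6 was -0.96 ± 0.05 (adjusted p = 9.25e-07), just under 2-fold, and its libraries did not overlap. The ligases Rnf43 and Znrf3 were at 8.43 ± 1.87 and 6.01 ± 0.48 TPM in polyclonal WT and at 9.03 ± 0.67 and 5.72 ± 0.50 TPM in WT5, with overlapping libraries for both.

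Apcdd1, a membrane inhibitor and target gene of the pathway, was at 0 in all polyclonal WT libraries and at 2.48, 2.85, 2.39 and 2.40 TPM in WT5 (adjusted p = 1.72e-09). No fold is given against a group at 0. Axin1, the scaffold of the complex that destroys beta-catenin, was at 47.4 ± 5.55 and 69.9 ± 1.27 TPM, while Axin2, its target-gene paralog, was at most at 0.02 and 0.05 TPM and was not tested.

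Among the transcription factors, Tcf7 and Tcf7l2 moved in opposite directions. Tcf7 was at 3.23, 2.86, 2.45 and 2.90 TPM in polyclonal WT and at 9.12, 11.1, 11.4 and 11.0 TPM in WT5. Tcf7l2 was at 41.2, 31.5, 31.2 and 34.7 TPM in polyclonal WT and at 11.2, 12.9, 13.3 and 13.2 TPM in WT5. The lines did not overlap for either gene, and the rise of Tcf7 (3.14-fold, adjusted p = 4.32e-06) and the fall of Tcf7l2 (3.15-fold, adjusted p = 3.79e-06) were of like size. Tcf7l2 was the most abundant of the 4 TCF/LEF genes in polyclonal WT, at 34.6 ± 4.63 TPM. In WT5 the highest was Tcf7l1, a TCF factor known as a repressor, at 15.5 ± 0.89 TPM against 12.6 ± 0.98 TPM for Tcf7l2. Ctnnb1, the gene of beta-catenin, was at 615, 620, 649 and 598 TPM in polyclonal WT and at 385, 390, 404 and 408 TPM in WT5. It was lower in every WT5 library by a log2 difference of -0.86 ± 0.04 (adjusted p = 6.03e-07), under 2-fold.

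The subclones were then asked on which side of the difference between WT5 and polyclonal WT they lay. For 20 of the 21 genes that changed between these lines, all 20 subclone libraries lay beyond every polyclonal library on the side of WT5. Of all 5340 genes that changed, 86.7% met this condition. The exception was Fzd9, where this held for 12 of the 20 libraries. Sfrp2, for one, was at 0.15 TPM or less in every subclone library, Wnt2 was at 1.47 TPM or more and Apcdd1 at 0.58 TPM or more. The read format of the subclone libraries is not given in the sources used here. Descent from WT5 and a read format shared with it thus cannot be told apart.

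Each subclone was compared with WT5, the clone from which all 5 were sorted. The same 4 WT5 libraries served in all 5 comparisons, so these are not independent of one another. Wnt16 was the gene called most often, higher in subclones 1 to 4. Dkk2 and Dkk3, grouped as inhibitors by symbol, were lower in 3 subclones each. In subclone 1, 7 of 40 tested genes changed (17.5%, 2 higher and 5 lower), against 2.84% of all genes (1.32% higher and 1.52% lower). In subclone 2 it was 4 of 40 (10%, 1 higher and 3 lower), against 2.51% (1.06% and 1.45%), and in subclone 3 also 4 of 40 (1 higher and 3 lower), against 3.64% (2.11% and 1.53%). In subclone 4 it was 4 of 39 (10.3%, 1 higher and 3 lower), against 4.89% (3.21% and 1.68%), and in subclone 5 it was 2 of 39, both lower (5.13%), against 3.44% (1.87% and 1.58%). Of the genes tested, 1 in subclone 1 and 2 each in subclones 2 and 3 passed the filter through 1 group only, and 21 or 22 of the 61 were not tested. The median log2 difference of the Wnt pathway genes tested was -0.04, -0.14, -0.06, -0.07 and -0.18 in subclones 1 to 5, while that of all genes lay within 0.04 of 0. With log2(TPM + 1) in place of 0.1 the counts of subclones 1 to 4 fell to between 1 and 2, and without centring or with quantile normalization that of subclone 3 was 7. By the z-score rule 0 of 40 Wnt pathway genes changed in any subclone with limma, nor did any with an unequal-variance test, against 0.152%, 0.144%, 0.173%, 0.202% and 0.173% of all genes in subclones 1 to 5. The unadjusted limma p-value was below 0.05 for between 26 and 30 of the 40, and the adjusted one below 0.01 for between 16 and 19. The threshold on size thus kept the latter from being called. Such counts over all genes are not given, so whether the Wnt pathway genes stand out in this was not tested. The largest z-score difference was that of Notum in subclone 2 at -0.92, where 1 equals 7.94-fold.

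**Figure D4:**
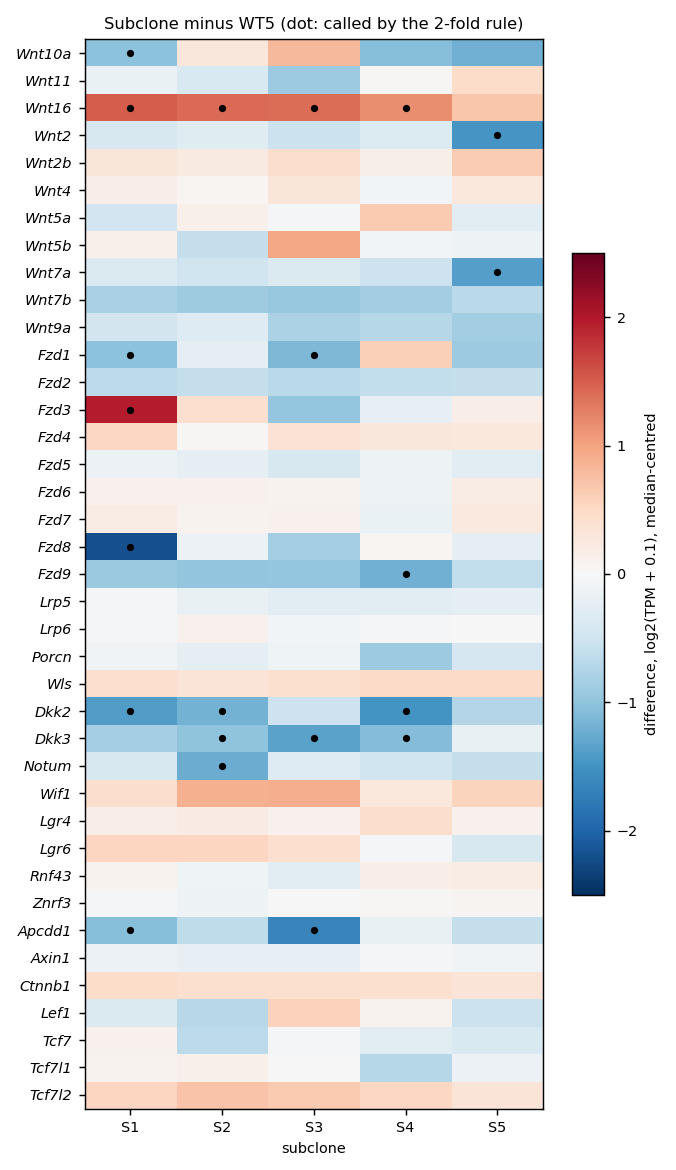
Heat map of the log2(TPM + 0.1) difference of each subclone from WT5 for 39 Wnt pathway genes, with a dot on each called gene. Wnt16 is above 0 in all 5 columns, and Fzd3 and Fzd8 of subclone 1 are the strongest changes at 1.97 and -2.21.

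Wnt16 (chr6:22288227-22298522), a ligand best studied in bone, was at 22.9, 23.1, 25.3 and 24.5 TPM in WT5. It was at 70.6, 68.0, 60.7 and 69.6 TPM in subclone 1, and its means were 62.1 ± 5.74, 59.0 ± 3.72, 50.2 ± 1.06 and 36.1 ± 2.35 TPM in subclones 2 to 5. All 20 subclone libraries were above all WT5 libraries. The log2 differences were 1.52, 1.42, 1.39 and 1.16 in subclones 1 to 4 (adjusted p between 3.39e-06 and 1.04e-05), and 0.70 in subclone 5 (adjusted p = 0.000135), under 2-fold. Wnt7b moved the other way, from 290 ± 12.2 TPM in WT5 to between 122 and 187 TPM over the 20 subclone libraries, all of them below every library of WT5 and of polyclonal WT. Its log2 differences, between -0.66 and -0.94, had adjusted p between 5.2e-06 and 0.000118 and did not reach 2-fold.

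Wnt2 and Wnt7a were lowest in subclone 5. Wnt2 was at 1.54, 1.47, 1.48 and 1.84 TPM there, against 4.44 TPM or more in WT5 and 2.79 TPM or more in the other subclones. Wnt7a was at 1.89, 2.39, 2.31 and 2.46 TPM, against 5.74 TPM or more in WT5 and 3.67 TPM or more in the other subclones. Subclone 5 did not overlap with any other descendant of WT5 for either gene, and both passed 2-fold against WT5 with log2 differences of -1.48 ± 0.11 and -1.38 ± 0.08 (adjusted p = 0.00017 and 4.82e-05).

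Subclone 1 differed most in its receptors. Fzd3, a receptor known for planar polarity and axon guidance, was at 1.12, 1.04, 1.25 and 1.08 TPM in subclone 1 and at 0.20, 0.18, 0.24 and 0.26 TPM in WT5. Fzd8 was at 0.33, 0.23, 0.25 and 0.21 TPM in subclone 1 and at 1.53, 1.55, 1.64 and 1.54 TPM in WT5. Neither overlapped, and the log2 differences were 1.97 ± 0.10 and -2.21 ± 0.10 (adjusted p = 3.02e-05 and 2.04e-05). Both calls were lost with log2(TPM + 1), as were those of Fzd1 given next. Fzd1 fell in subclones 1 and 3, from 8.31 ± 0.23 TPM in WT5 to 3.97 ± 0.32 and 3.54 ± 0.30 TPM (adjusted p = 2.98e-05 and 0.000102), and the call in subclone 1 was lost without WT5 replicate 1 or subclone 1 replicate 3. Wnt10a in subclone 1 was at 0.33 ± 0.07 TPM against 0.79 ± 0.18 TPM (adjusted p = 0.00454), and this call was lost in 6 alternative settings, 5 of which leave out 1 library.

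The Dickkopf genes Dkk3 and Dkk2 and the target gene Apcdd1 were lower in some subclones than in WT5. Dkk3 was between 5.35 and 13.6 TPM in the 20 subclone libraries with a median of 7.39 TPM, against 14.9 TPM or more in WT5. It fell in subclones 2, 3 and 4 by log2 differences of -1.01, -1.33 and -1.08 (adjusted p = 6.52e-05, 3.82e-05 and 1.68e-05). Dkk2 fell in subclones 1, 2 and 4 by -1.39, -1.18 and -1.49 (adjusted p = 0.000519, 0.000881 and 0.000152), at levels of 0.32 TPM or less. The call of Dkk3 in subclone 2, at a fold of 2.01, was lost without WT5 replicate 1 and without subclone 2 replicate 2 or 3. Apcdd1 fell in subclones 1 and 3, from 2.53 ± 0.22 TPM in WT5 to 1.14 ± 0.10 and 0.69 ± 0.10 TPM, by -1.06 and -1.64 (adjusted p = 6.67e-05 and 1.38e-05). Fzd9 fell in subclone 4 by -1.20 ± 0.19 (adjusted p = 0.0016). Notum, an enzyme that removes the lipid from Wnt proteins, was at 0.03, 0.03, 0.03 and 0.09 TPM in subclone 2 and at 0.26, 0.11, 0.38 and 0.31 TPM in WT5 (adjusted p = 0.00888), a call that was lost in 11 alternative settings, 7 of which leave out 1 library.

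In 12 of 40 tested Wnt pathway genes all 20 subclone libraries lay apart from all WT5 libraries. Wls and Wnt16 were higher, and Apcdd1, Axin1, Dkk2, Dkk3, Fzd2, Fzd9, Wnt2, Wnt7a, Wnt7b and Wnt9a were lower. Of all 14993 genes tested so, 3.21% were higher and 11.4% lower in this sense. These differences run along the division between the tables, from which they cannot be told apart. Wls was between 169 and 204 TPM in the subclones, above WT5 and below polyclonal WT, and Ctnnb1, with group means between 459 and 530 TPM, was also between these lines.

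How far the 5 subclones differed among themselves was tested by 1 F test per gene within their own table, where no difference between tables enters. With limma, an adjusted p-value below 0.01 and more than 2-fold between the highest and lowest subclone, 12 of 41 Wnt pathway genes varied (29.3%), against 5.33% of all 14999 genes. The median range of subclone means was 0.66 over the 41 genes and 0.30 over all genes on the log2 scale. In all 12 the libraries of the highest and lowest subclone did not overlap, and in 9 the highest or the lowest subclone lay apart from all others. The 12 had been picked for a wide range between subclones, and the same counts were not made over all genes that varied. The genes were 5 ligands that WT5 had in excess of polyclonal WT (Wnt2, Wnt5a, Wnt5b, Wnt7a and Wnt11) and the ligand Wnt10a. The others were the receptors Fzd1, Fzd3 and Fzd8, the Dickkopf gene Dkk3, the inhibitor Apcdd1, and Lef1. With log2(TPM + 1) 4 of the 12, namely Fzd1, Fzd8, Wnt5b and Dkk3, remained called.

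**Figure D5:**
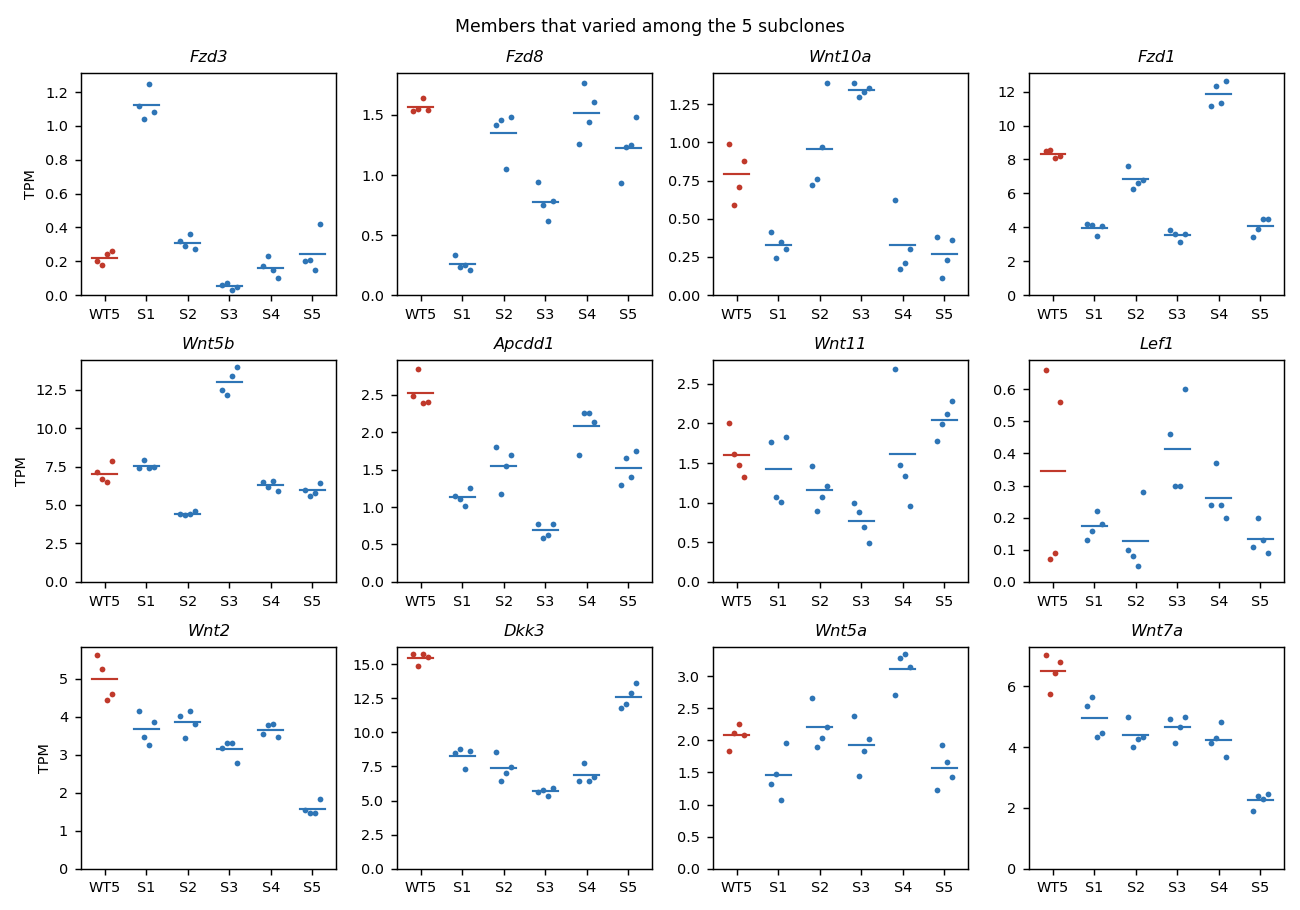
TPM in each library of WT5 and the subclones (dots) with the mean (line) for the Wnt pathway genes that varied among the 5 subclones. Fzd3 is highest in subclone 1 and lowest in subclone 3, Wnt5b is highest in subclone 3, and Fzd1 is highest in subclone 4.

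Fzd3 had the widest range, from 0.05 ± 0.02 TPM in subclone 3 to 1.12 ± 0.09 TPM in subclone 1 (SD, n = 4), a log2 range of 2.94 (adjusted p = 2.55e-08). Subclone 1 was above and subclone 3 below every library of the other subclones. Fzd8 had a range of 2.25 (adjusted p = 2.89e-09), with subclone 1 apart at the low end and subclone 4 the highest at 1.52 ± 0.22 TPM. Fzd1 was at 11.2, 12.3, 11.3 and 12.6 TPM in subclone 4, where the highest library of any other subclone had 7.61 TPM, and its range was 1.71 (adjusted p = 1.92e-11). Thus a different subclone was the highest for Fzd3 and for Fzd1, and subclone 1, the highest for Fzd3, was the lowest for Fzd8.

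Among the ligands, Wnt5b was at 12.5, 12.2, 13.4 and 13.9 TPM in subclone 3 and at 4.41, 4.34, 4.40 and 4.62 TPM in subclone 2. Subclone 3 was above and subclone 2 below all other subclone libraries, with a range of 1.57 (adjusted p = 3.85e-10). Wnt10a was at 1.39, 1.3, 1.33 and 1.36 TPM in subclone 3 and at 0.38, 0.11, 0.23 and 0.36 TPM in subclone 5, a range of 2.02 (adjusted p = 8.61e-05). Wnt5a was highest in subclone 4, at 3.12 ± 0.28 TPM, above every library of the other subclones (range of 1.13, adjusted p = 3.69e-05). Wnt2 and Wnt7a varied through their low level in subclone 5 (ranges of 1.18 and 1.02, adjusted p = 1.86e-07 and 8.08e-08), and the call of Wnt7a was lost without subclone 5 replicate 1. Wnt11 was highest in subclone 5 and lowest in subclone 3 (range of 1.36, adjusted p = 0.00778), a call lost in 14 alternative settings, 11 of which leave out 1 library. Wnt4 and Wnt7b, for comparison, were not called, and their group means lay between 13.2 and 17.0 TPM and between 142 and 171 TPM.

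Dkk3 was highest in subclone 5, at 11.8, 12.1, 12.9 and 13.6 TPM, and lowest in subclone 3, at 5.62, 5.79, 5.35 and 5.95 TPM. Each lay apart from all other subclones (range of 1.15, adjusted p = 3.69e-08), and in subclone 5 the log2 difference from WT5 was -0.18 ± 0.06. Apcdd1 was lowest in subclone 3 and highest in subclone 4, at 2.09 ± 0.27 TPM (range of 1.46, adjusted p = 2.27e-08). Lef1, the TCF/LEF factor with the lowest level, was at 0.46, 0.30, 0.30 and 0.60 TPM in subclone 3 and at 0.10, 0.08, 0.05 and 0.28 TPM in subclone 2 (range of 1.28, adjusted p = 0.00193). In WT5 it was at 0.66, 0.07, 0.09 and 0.56 TPM, so that the 4 libraries of 1 clone spanned more than the subclone means, and the call of Lef1 among the subclones was lost when all 28 libraries shared 1 fit.

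Genes that are used as readouts of beta-catenin and TCF/LEF were read beside these. Of the 9 that belong to the Wnt pathway genes above, 6 were tested between WT5 and polyclonal WT and 2 changed, Tcf7 and Apcdd1, both higher. Axin2 was at 0.45 TPM or less in all 28 libraries, with its highest value in subclone 1 replicate 2, and Lgr5 and Nkd1 stayed below 0.1 TPM. Of 24 further target genes found in the table, 15 were tested and 9 changed, of which 8 were higher in WT5, against 31.0% of all genes. Ephb3 was the target with the largest rise, from 0.48 ± 0.21 to 14.7 ± 0.28 TPM (log2 difference of 4.54 ± 0.26, adjusted p = 2.5e-06), and Sox9 followed with 0.39 ± 0.10 and 9.60 ± 0.20 TPM (4.11 ± 0.17, adjusted p = 3.63e-07). The median difference of the 15 was 1.19. In subclones 1 to 5, 0 of 14, 1 of 14, 4 of 15, 1 of 14 and 1 of 14 of these targets changed against WT5, all of them lower, beside 2.84%, 2.51%, 3.64%, 4.89% and 3.44% of all genes. Among the subclones 4 of 14 varied, Sox9, Cd44 and Ccnd1 among them, beside 5.33% of all genes.

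Of 53 other components of the pathway (such as Dishevelled, Dact, Prickle and Tle genes), 44 were tested between WT5 and polyclonal WT and 14 changed, 12 higher and 2 lower, with a median difference of 0.49. At 14 of 44 the count was near the 31.0% of all genes. The largest rises were those of Dact2, which binds Dishevelled (from 0.03 ± 0.02 to 5.54 ± 0.69 TPM, log2 difference of 5.2 ± 0.13), and Prickle2, a planar polarity gene (from 0.02 ± 0.02 to 2.22 ± 0.19 TPM, 4.04 ± 0.13). Sostdc1, a secreted inhibitor of Wnt and BMP signalling, was at 3.90 ± 0.25 TPM in polyclonal WT and at 0 in all WT5 libraries (adjusted p = 5.17e-10). Against WT5, 2 of 44, 1 of 44, 4 of 45, 2 of 43 and 2 of 44 such components changed in subclones 1 to 5, beside 2.84%, 2.51%, 3.64%, 4.89% and 3.44% of all genes. Among the subclones 4 of 43 varied (Ror1, Prickle1, Dact2 and Prickle2), beside 5.33% of all genes.

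Of the 61 genes, 25 overlap another gene in the annotation, among them Sfrp2, Wls, Wnt5a, Wnt5b, Wnt6 and Wnt7b, and whether strand was used in counting is not given in the sources used here. Stretches of 50 bases shared with another gene were found in the longest transcript of 11, and in 0 of them did such stretches make up more than 5% of it.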

How the data were processed

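RNA of 28 libraries, 4 in each of 7 groups taken from the sample labels, was sequenced. As deposited by the authors, values are TPM per gene, made with CASAVA 1.8, STAR 2.7.3a (default settings, GRCm38, Ensembl annotation) and RSEM 1.3.1 per the methods and the submitters' processing notes. The tables were joined by gene identifier. TPM keeps no depth, so no counting error can be given and count tests were not used.

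Two-sided tests were made with limma 3.58.1 in R 4.3.3 on the libraries compared and adjusted by Benjamini-Hochberg over all genes tested. For the 2-fold rule, log2(TPM + 0.1) was centred in each library on the median of genes with a mean of at least 1 TPM over the 28 libraries, genes with a mean of at least 0.1 TPM in the groups compared were tested, and calls needed an adjusted p-value below 0.01 and a log2 difference above 1 in size. The F test among the subclones used the same values and thresholds on the range of subclone means. For the z-score rule, log2(TPM) of genes above 0 in all libraries was z-scored within each library, and calls needed an adjusted p-value below 0.01 and a difference above 1. The scripts were tested on simulated data.

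The 61 genes, the other gene lists and the tests were chosen with earlier results of these data known. Genes named were those called in any comparison, the 2 with the highest mean TPM in each role group and those that are target genes of beta-catenin and TCF/LEF, which came to 41, and of the other lists at most 3 called genes in each direction. Other genes named, among them those of the other lists that varied among the subclones, were chosen after their values were seen. A gene of the list of target genes is counted there and not reported here by name. Alternatives were a pseudocount of 1, other filters, no centring, quantile normalization, an unequal-variance test, all 28 libraries in 1 fit, each library left out in turn and a block for the replicate number. A looser threshold of 0.05 on the adjusted p-value was another. Coordinates and overlaps came from GENCODE M21 on GRCm38, which holds all 61 genes, and promoter stretches from RefSeq on GRCm38.p6. Python 3.11.15 with numpy 2.4.6, pandas 2.3.3, scipy 1.17.1 and matplotlib 3.10.9 was used for summaries and figures.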

Additional observations from a re-analysis of the deposited data

Results flagged for a closer look

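In 244 combinations of gene and group, 1 library was compared with the other 3 of its group, and in 10 it lay apart by Dixon's 95% criterion, where chance gives about 1 in 20 (12.2 here). In polyclonal WT these were Wnt7a in replicate 1 (1.18 TPM, the others between 0.53 and 0.55) and Sfrp5 in replicate 3 (0.34 TPM, the others 0.25 to 0.26). In WT5 they were Tcf7l2 in replicate 1 (11.19 TPM, the others 12.91 to 13.26), and Fzd9 and Znrf3 in replicate 3 (0.55 TPM against 0.35 to 0.37 and 6.47 TPM against 5.45 to 5.51). In the subclones they were Wnt5b in subclone 1 replicate 2 (7.93 TPM, the others 7.40 to 7.46), Fzd8 in subclone 2 replicate 3 (1.05 TPM, the others 1.42 to 1.48), Wif1 in subclone 4 replicate 2 (0.31 TPM, the others 0.18 to 0.19), Wls in subclone 5 replicate 2 (186.67 TPM, the others 199.01 to 201.05) and Wnt9a in subclone 5 replicate 1 (4.08 TPM, the others 5.32 to 5.56).

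The difference from the shared parent WT5 was not the same in all subclones for the 12 genes that passed the F test. Their ranges of subclone means on the log2 scale were 2.94 for Fzd3, 2.25 for Fzd8, 2.02 for Wnt10a, 1.71 for Fzd1, 1.57 for Wnt5b, 1.46 for Apcdd1, 1.36 for Wnt11, 1.28 for Lef1, 1.18 for Wnt2, 1.15 for Dkk3, 1.13 for Wnt5a and 1.02 for Wnt7a.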

How the results depend on the processing

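Over 56 called results of single genes and their alternatives, 1070 values in all, 994 kept their direction and call, 76 kept the direction and lost the call, and 0 reversed. A further 22 had no value, since the gene was not tested in that setting. The range used by the F test has no sign, so its results could not reverse. A looser threshold of 0.05 on the adjusted p-value could not lose a call. By the z-score rule, the 2 genes called between WT5 and polyclonal WT became 5 with log2(TPM + 0.1) over genes above 0 in any library, 1 with log2(TPM + 1) and 1 with all 28 libraries in 1 fit. By the 2-fold rule, log2(TPM + 1) gave 14 in place of 21 genes between WT5 and polyclonal WT, 1, 1, 2 and 1 in place of 7, 4, 4 and 4 in subclones 1 to 4, and 4 in place of 12 among the subclones. A mean of at least 1 TPM gave 3, 2 and 2 in subclones 1, 2 and 4, where fewer genes were tested. Subclone 3 had 7 without centring and 7 with quantile normalization. Leaving out 1 library gave between 2 and 4 genes by the z-score rule for WT5 against polyclonal WT (4 without polyclonal WT replicate 1, with Dkk2 and Wnt7a added), between 0 and 1 for subclone 2 (1, Notum, without WT5 replicate 2 or subclone 2 replicate 4) and 0 for the other subclones. By the 2-fold rule it gave between 20 and 22 for WT5 against polyclonal WT, 5 and 7 for subclone 1, 2 and 5 for subclone 2 (2 without its replicate 2), 4 and 7 for subclone 3 (7 without WT5 replicate 2), 4 and 6 for subclone 4, 2 for subclone 5, and between 10 and 13 among the subclones. Except for the settings that test fewer genes or samples, the cause of these shifts was not tested.

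The replicate numbers were not taken to pair libraries, since same-numbered libraries did not deviate together in every pair of any 2 groups (correlations between -0.216 and 0.322). With the replicate number as a block, 2 genes changed in subclone 2 in place of 4, 21 between WT5 and polyclonal WT, 6, 4, 4 and 3 in subclones 1, 3, 4 and 5, and 12 among the subclones, and the z-score rule again called 2 genes between WT5 and polyclonal WT and 0 in each subclone. Since depth is not known, values near the 0.1 TPM filter, such as those of Wif1, Notum, Lef1 and Fzd9, are the least certain.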

Other observations

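In several groups the same library was the lowest for most Wnt pathway genes. Among the 32 with a mean of at least 1 TPM, subclone 3 replicate 2 was the lowest of its 4 libraries for 25 (78.1%, against 61.9% of 12442 genes), subclone 2 replicate 2 for 24 (75.0%, against 55.3%), subclone 1 replicate 3 for 24 (75.0%, against 45.2%) and subclone 4 replicate 1 for 21 (65.6%, against 46.6%), while WT5 replicate 3 was the highest of its group for 19 (59.4%, against 36.9%). Other pairs of neighbouring Wnt genes that lie within 100 kb of each other on GRCm38 are Wnt3a and Wnt9a (16.2 kb apart), Wnt9b and Wnt3 (24.3 kb) and Wnt10b and Wnt1 (11.7 kb). In the pair of Wnt3a and Wnt9a the latter was above 4 TPM in every library and the former below 0.1 TPM, and in the other pairs both genes stayed below 0.1 TPM.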
